A study of Homo sapiens with 3 samples.

Results

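To follow the machinery that handles capped nuclear RNA after RBCK1 depletion, 7 genes were examined in RNA-seq data of Caki-1 cells: *SRRT*, *NCBP1*, *NCBP2*, *ZC3H18*, *PHAX*, *DROSHA* and *DGCR8*. They are 7 of the 44591 genes in the deposited table, found there by symbol, and all 7 were among the 12403 genes that passed a filter on low values (3-library mean of 1 RPKM or more). The group was chosen by the RPKM values of these same libraries, since *SRRT* stood out in both comparisons and the other 6 genes encode proteins that work with it. The levels and ratios of the 7 genes are therefore a description and carry no test. RPKM is the number of reads on a gene divided by gene length and by the total reads of the library, so levels of different genes can be set side by side.

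Caki-1 is an established human renal carcinoma line with wild-type p53. Cells were transfected with a non-targeting siRNA (si-Control), with si-RBCK1 #1 or with si-RBCK1 #2 (si-HOIL-1#1 and si-HOIL-1#2 in the sample titles) under a general protocol of 10 nmol/L siRNA, and total RNA taken after 48 h was depleted of ribosomal RNA. Each condition has a single library, which leaves every difference without a replicate check, and the 2 siRNAs are distinct reagents that do not replicate one another. Both comparisons use the same si-Control library. In bulk RNA, a change in the share of cells that make a transcript and a change in its amount per cell cannot be told apart.

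The targeted gene, *RBCK1*, was at 33.3 RPKM in si-Control and lower, at 9.97 and 12.3 RPKM, in si-RBCK1 #1 and si-RBCK1 #2. The total read numbers behind the RPKM values were 36926834, 40442939 and 36344428 in the same order. Of the renal markers, *PAX8* (82.5 to 124 RPKM) was well expressed, while *CA9* and *PAX2* reached at most 0.0642 RPKM. *VIM* was at 664, 1512 and 1392 RPKM and *KRT8* at 65.6, 172 and 238 RPKM in si-Control, si-RBCK1 #1 and si-RBCK1 #2, and any part of these shifts in the results below was not tested. Markers of leukocytes (*PTPRC* and *CD3E*) and endothelial cells (*PECAM1*, *VWF* and *CDH5*) reached at most 0.0368 RPKM, while *CD68*, a lysosomal protein used as a macrophage marker, was at 41.8, 51.0 and 52.3 RPKM.

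RNA made by polymerase II receives a cap at its first base, and in the nucleus this cap is held by the cap-binding complex of NCBP1 (CBP80) and NCBP2 (CBP20). The *SRRT* product, known as ARS2, binds this complex and connects it to factors that decide the fate of the transcript. Among these are ZC3H18, which leads to the nuclear exosome and decay, and PHAX, the adaptor for export of capped snRNA. ARS2 also contributes to the handling of primary microRNA transcripts, which the Microprocessor cuts into hairpins. The Microprocessor consists of the nuclease DROSHA and its RNA-binding partner DGCR8.

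*SRRT* was about 4 times as abundant with either siRNA as with si-Control, whereas no other gene of the group reached a 2-fold change. *DGCR8*, *PHAX*, *ZC3H18* and *DROSHA* had moderately higher levels with both siRNAs, *NCBP2* had a lower level with both, and *NCBP1* hardly moved. At a limit of 2-fold on the log2(RPKM + 1) scale, 1 of the 7 genes was higher with si-RBCK1 #1 (2.91% of all 12403 genes were), 1 with si-RBCK1 #2 (2.50% of all genes), and 1 with both (1.46% of all genes). It was *SRRT* in each case. None of the 7 genes was at least 2-fold lower with both, against 1.41% of all genes. With any rise counted, 5 of 7 genes were higher with both siRNAs (43.3% of all genes), and the other 2, the subunits of the cap-binding complex, were lower with both (38.2% of all genes). As the genes were selected on these libraries, nothing is read from these shares.

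*SRRT* lies on the plus strand of chromosome 7 from 100472701 to 100486285 (hg19, as in the table). The si-Control library had 12.8 RPKM of *SRRT* from 1422 reads, the si-RBCK1 #1 library 51.8 RPKM from 6318 reads, and the si-RBCK1 #2 library 52.5 RPKM from 5751 reads. Read numbers here and below are the smallest that fit the RPKM values. Both si-RBCK1 libraries were thus high and close to each other, at 4.06 and 4.11 times the si-Control level. The log2 ratios on log2(RPKM + 1) were 1.94 and 1.96, each higher than those of 99.8% of all genes. On reads alone, without the pseudocount, the log2 ratios were 2.02 (95% exact interval for counting error, 1.94 to 2.10) and 2.04 (1.95 to 2.12). The 2 siRNAs differed from each other by 0.02 (-0.03 to 0.07), which is within counting error. In terms of level, *SRRT* exceeded 62.2% of genes with si-Control, 89.8% with si-RBCK1 #1 and 90.2% with si-RBCK1 #2.

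No other gene of the table overlaps *SRRT*. *TRIP6*, which encodes a LIM domain protein, ends 1624 bases before *SRRT* on the same strand and was at 75.9, 76.3 and 89.5 RPKM in si-Control, si-RBCK1 #1 and si-RBCK1 #2. Its log2 ratios were 0.01 and 0.23. *UFSP1*, which encodes a UFM1-specific protease, lies 58 bases beyond the end of *SRRT* on the other strand and was at 1.17, 1.19 and 0.912 RPKM, with log2 ratios of 0.01 and -0.18. The flanking genes therefore did not show the 4-fold difference seen for *SRRT*.

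Neither subunit of the cap-binding complex had a higher level with the si-RBCK1 siRNAs. *NCBP1*, on chromosome 9 from 100395705 to 100436030 (plus strand), had levels of 14.2, 13.7 and 13.6 RPKM in si-Control, si-RBCK1 #1 and si-RBCK1 #2, from 2819, 2973 and 2668 reads. The 3 libraries were thus nearly level, and the log2 ratio on reads was -0.05 with si-RBCK1 #1 (-0.13 to 0.02) and -0.06 with si-RBCK1 #2 (-0.13 to 0.02). Both intervals include 0. *NCBP1* shares 258 bases with *TSTD2* on the opposite strand (3.22, 3.08 and 3.59 RPKM) and also overlaps an antisense gene that reached at most 0.174 RPKM.

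*NCBP2*, on chromosome 3 from 196662273 to 196669464 (minus strand), was the most abundant of the 7 genes in si-Control. Its levels in si-Control, si-RBCK1 #1 and si-RBCK1 #2 were 42.6, 28.1 and 37.2 RPKM, from at least 1395, 1008 and 1198 reads. These are the smallest numbers that fit the RPKM values, at a length of 887 nt. The longest protein-coding transcript of *NCBP2* has 2216 nt, so the true read numbers may be a multiple and the intervals too wide. Both si-RBCK1 libraries were lower, at 66.0% and 87.3% of si-Control. The log2 ratios on log2(RPKM + 1) were -0.58 and -0.19, and those on reads were -0.60 (-0.72 to -0.48) and -0.20 (-0.31 to -0.08). The siRNAs differed here by more than counting error, with a log2 ratio of si-RBCK1 #2 to si-RBCK1 #1 of 0.40 (0.28 to 0.53), the widest gap among the 7 genes. An antisense gene covers 2658 bases of *NCBP2* and was at 0.964, 0.880 and 0.930 RPKM. The library kit keeps the strand, but whether the counting used it is not given in the sources used here, so reads of such pairs may have been counted for the other gene.

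*ZC3H18* and *PHAX*, the adaptors for decay and for snRNA export, were both higher with either siRNA. *ZC3H18*, on chromosome 16 from 88636789 to 88698372 (plus strand), had levels of 18.3, 24.2 and 25.9 RPKM in the 3 libraries (si-Control, si-RBCK1 #1, si-RBCK1 #2), from 2565, 3712 and 3579 reads. On reads its log2 ratios were 0.40 (0.33 to 0.48) and 0.50 (0.43 to 0.58). *PHAX*, on chromosome 5 from 125936607 to 125962944 (plus strand), stood at 12.3, 16.4 and 19.6 RPKM in the same order, from 1651, 2409 and 2588 reads. Its log2 ratios on reads were 0.41 (0.32 to 0.51) and 0.67 (0.58 to 0.76), so that the level with si-RBCK1 #2 stood above that with si-RBCK1 #1 by 0.26 (0.18 to 0.34). No other gene of the table overlaps *ZC3H18* or *PHAX*.

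Both Microprocessor genes were higher with either siRNA, and *DGCR8* more so than *DROSHA*. *DROSHA*, on chromosome 5 from 31400601 to 31532282 (minus strand), had 7.38 RPKM in si-Control (1499 reads) and 10.5 and 9.86 RPKM in si-RBCK1 #1 and si-RBCK1 #2 (2344 and 1971 reads). Its log2 ratios on reads were 0.51 (0.42 to 0.61) and 0.42 (0.32 to 0.52). *DGCR8*, on chromosome 22 from 20067755 to 20099400 (plus strand), had the lowest level of the group in every library, at 5.04, 8.56 and 9.44 RPKM from 841, 1565 and 1550 reads. It was at 170% and 187% of si-Control, with log2 ratios on log2(RPKM + 1) of 0.66 and 0.79. On reads they were 0.76 (0.64 to 0.89) and 0.91 (0.78 to 1.03). At a limit of 1.5-fold on log2(RPKM + 1), 2 of the 7 genes, *SRRT* and *DGCR8*, were higher with both siRNAs, against 7.47% of all genes. *TRMT2A*, a tRNA methyltransferase gene that shares only 12 bases with the end of *DGCR8* on the opposite strand, was at 3.33, 5.91 and 7.68 RPKM.

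The *DGCR8* transcript itself contains hairpins that the Microprocessor can cut, which is known as a feedback on DGCR8. They carry the microRNAs miR-3618 and miR-1306, and their mature sequences are shown because these are the elements within a member gene on which the complex acts. In GRCh38.p14 (RefSeq), miR-3618 lies on the plus strand at chr22:20085797-20085818 and the arms of miR-1306 at chr22:20086072-20086093 and chr22:20086112-20086129. In the GENCODE v29 annotation the first falls in the untranslated part of exon 2 of *DGCR8*, and both miR-1306 arms fall in the coding part of the same exon. Each is written 5′ to 3′ with the seed (bases 2 to 8) in capitals.
hsa-miR-3618: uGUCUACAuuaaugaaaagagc
hsa-miR-1306-5p: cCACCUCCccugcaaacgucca
hsa-miR-1306-3p: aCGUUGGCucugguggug
The 3 seeds differ from each other. *MIR3618* and *MIR1306* are listed at 0 in all 3 libraries, where 3 reads would have given 0.843 to 0.971 RPKM. Reads over these hairpins could have been assigned to *DGCR8*, within whose exon they lie, or left uncounted. A value of 0 here therefore does not show that reads were absent. Libraries of fragmented long RNA also do not sample mature microRNA well. The level of the mature microRNAs was not measured.

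With si-Control the order of levels was *NCBP2*, *ZC3H18*, *NCBP1*, *SRRT*, *PHAX*, *DROSHA* and *DGCR8*, and only *SRRT* (12.1 to 13.5 RPKM) and *PHAX* (11.7 to 12.9 RPKM) were neighbours with overlapping 95% exact Poisson intervals. With both si-RBCK1 siRNAs *SRRT* moved from 4th to 1st place, and *PHAX* passed *NCBP1*. In the library of si-RBCK1 #2, *DROSHA* (9.43 to 10.3 RPKM) and *DGCR8* (8.97 to 9.92 RPKM) also overlapped. The other neighbours in each order did not overlap, as far as counting error goes.

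The balance between partners shifted accordingly. The level of *SRRT* was 0.901 times that of *NCBP1* with si-Control, 3.80 times with si-RBCK1 #1 and 3.85 times with si-RBCK1 #2. Against *NCBP2* the same ratio of levels was 0.300, 1.85 and 1.41, and against *DROSHA* it was 1.73, 4.92 and 5.32. Within the cap-binding complex, *NCBP2* was 3.0, 2.06 and 2.72 times as abundant as *NCBP1*. Within the Microprocessor, *DROSHA* was 1.47, 1.23 and 1.05 times as abundant as *DGCR8*. The level of *PHAX* was 0.672, 0.677 and 0.754 times that of *ZC3H18*, with the higher value in si-RBCK1 #2. These are ratios of mRNA levels, and proteins were not measured here.

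**Figure D1:**
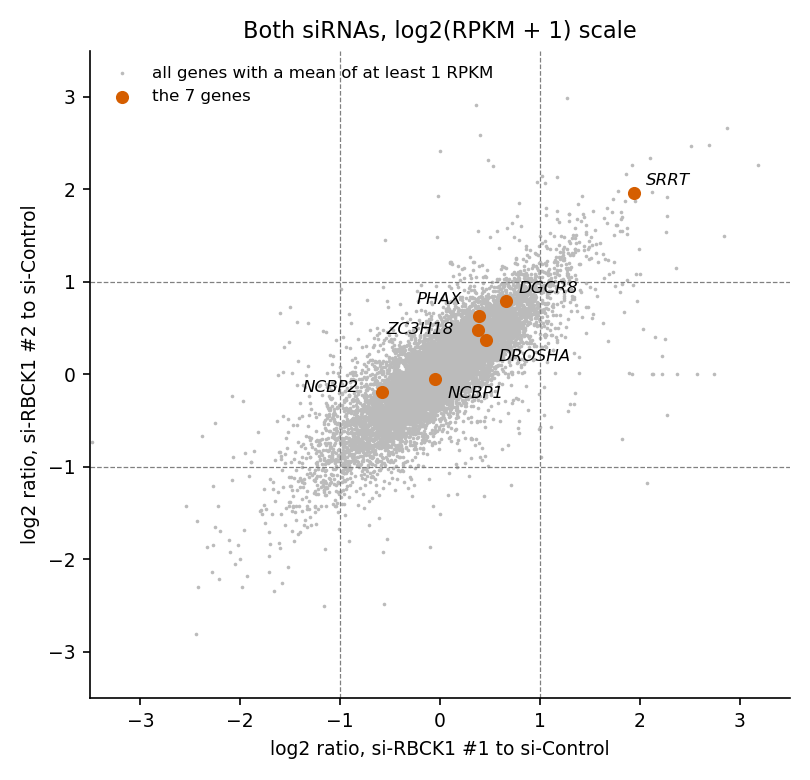
Log2 ratio to si-Control on the log2(RPKM + 1) scale for si-RBCK1 #1 (horizontal) and si-RBCK1 #2 (vertical), with 12403 genes in grey, the 7 genes in orange and dashed lines at 2-fold. *SRRT*, at 1.94 and 1.96, lies toward the upper right, 7th of all genes by the smaller of both ratios, and the other 6 genes lie within the dashed lines. Both axes share the si-Control library.

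The median log2 ratio of the 7 genes was 0.39 with si-RBCK1 #1 and 0.48 with si-RBCK1 #2, and without *SRRT* it was 0.39 and 0.43. Over all 12403 genes the medians were 0.02 and 0.03. Among 7749 protein-coding genes with a mean of 5 RPKM or more, the 5 whose pair of log2 ratios lay closest to that of *SRRT* were *SAC3D1*, *ORC1*, *SDF2L1*, *BRI3BP* and *HSPA8*. Likeness was the straight-line distance over both log2 ratios, and it was 0.09, 0.13, 0.16, 0.24 and 0.30. *SAC3D1*, a gene with a SAC3 domain, had log2 ratios of 1.95 and 1.87. *ORC1*, a subunit of the origin recognition complex that starts DNA replication, had 1.85 and 1.87. *SDF2L1*, an endoplasmic reticulum protein, had 1.78 and 1.98, and *BRI3BP* had 1.81 and 1.76. *HSPA8*, the constitutive HSP70 chaperone, was the only one of the 5 with a level above that of *SRRT*, at 249.5 RPKM with si-Control. Likeness over 2 ratios from 3 libraries says only that the values are close.

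The siRNA sequences are shown to locate stretches of the 7 transcripts that could pair with the seed of a guide strand. They are the sense strands, 5′ to 3′, with the 7 bases that match guide positions 2 to 8 in capitals.
si-RBCK1 #1: ggtgcaccttcATCAACAa
si-RBCK1 #2: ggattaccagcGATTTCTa
The full sequences were found in the longest protein-coding transcript of *RBCK1* (GENCODE v29) and in that of 0 of the 7 genes. The seed match of si-RBCK1 #1 was in 0 of the 7 longest protein-coding transcripts (23.8% of 10568 such transcripts hold it), and that of si-RBCK1 #2 was in 3 of 7 (29.2% of all). *SRRT* and *NCBP2* each hold 2 matches to si-RBCK1 #2 and *DROSHA* holds 1. Whether these matches had any part in the levels of the 3 genes was not tested. A match of letters is a description and does not show that the siRNA acted there.

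Beyond the 7 genes, lists of genes that act before, beside or after them were written from general knowledge. For each list the counts refer to genes that passed the filter, the ratios are on log2(RPKM + 1), and all ratios have si-Control as reference. In the paragraphs that follow, the lists are described by counts, medians and the values of named genes, without a test. All genes together had medians of 0.02 and 0.03. Of all genes, 43.3% were higher and 38.2% lower with both siRNAs by any amount. At least 2-fold higher were 2.91% with si-RBCK1 #1, 2.50% with si-RBCK1 #2 and 1.46% with both. The counts of each list stand beside these shares. The highest and lowest genes of a list are those by the mean of both log2 ratios.

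Of the nuclear exosome and the complexes that bring RNA to it, 18 of 18 genes passed the filter, and none changed 2-fold in either library. The list medians were -0.04 with si-RBCK1 #1 and 0.07 with si-RBCK1 #2, with 8 genes higher and 9 lower with both siRNAs. The highest were *EXOSC2* (0.78 and 0.44) and *EXOSC9* (0.55 and 0.52), both parts of the exosome. The lowest were another exosome subunit, *EXOSC8* (-0.79 and -0.70), and *ZCCHC8* (-0.58 and -0.78), the scaffold of the nuclear exosome targeting complex to which ZC3H18 connects the cap-binding complex. *ZCCHC8* was at 12.6, 8.09 and 6.91 RPKM, so this partner had a lower level with either siRNA while *ZC3H18* had a higher one.

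Of the genes for microRNA export, dicing and loading, 13 of 14 passed, with medians of 0.37 and 0.33. Of these, 8 were higher and 2 lower with both siRNAs (43.3% and 38.2% of all genes). At least 2-fold higher with both (1.46% of all genes) were *HSPA8* (249.5, 822 and 846 RPKM) and *HSP90AA1* (185, 653 and 594 RPKM), which are general chaperones that also help to load Argonaute, and whose reads can be shared with close relatives. The genes specific to the pathway moved less. *XPO5*, which exports microRNA precursors, was at 45.9, 30.4 and 29.0 RPKM, with log2 ratios of -0.58 and -0.65. *DICER1*, the cytoplasmic nuclease, was at 4.01, 5.54 and 5.35 RPKM with log2 ratios of 0.38 and 0.34. *TARBP2* (0.65 and 0.68) and *AGO2* (0.38 and 0.69) were also higher with both siRNAs, and *AGO4* (-0.64 and -0.32) was also lower. *XPO5*, *DICER1*, *TARBP2*, *AGO2* and *AGO4* were picked after their values were seen.

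All 13 cofactors of the Microprocessor passed, with medians of 0.23 and 0.25, and 9 were higher and 3 lower with both siRNAs (43.3% and 38.2% of all genes). *SAFB2* was at 11.6, 23.2 and 30.2 RPKM (log2 ratios 0.95 and 1.31) and its neighbour and relative *SAFB* at 17.8, 34.4 and 37.0 RPKM (0.92 and 1.02). Both encode scaffold attachment factors, and their reads may be partly shared. Both passed the 2-fold limit with si-RBCK1 #2 (2.50% of all genes) and lay just under it with si-RBCK1 #1. On reads, without the pseudocount, the ratio of *SAFB2* with si-RBCK1 #1 was 1.00 (0.91 to 1.10). Of the 12 genes for 3′-end processing of histone transcripts, in which ARS2 and the cap-binding complex also take part, *SNRPD3* (8.18, 19.5 and 16.9 RPKM) was at least 2-fold higher with si-RBCK1 #1 (1.16) and near that limit with si-RBCK1 #2 (0.96). The list medians were 0.25 and 0.18, with 7 genes higher and 3 lower with both siRNAs.

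Integrator and NELF, which act on RNA polymerase II near the start of genes and on snRNA ends, had 18 of 18 genes above the filter and none changed 2-fold, with medians of 0.20 and 0.14 and with 10 higher and 5 lower with both siRNAs. The highest were *INTS5* (0.66 and 0.91) and *NELFB* (0.61 and 0.67), and the lowest were *INTS12* (-0.53 and -0.45) and *INTS6* (-0.16 and -0.34). Of the mRNA export genes 13 of 14 passed, with medians of -0.05 and -0.03, and 5 were higher and 6 lower with both. Among them *ALYREF*, an export adaptor recruited near the cap, was at 57.9, 178 and 156 RPKM, and was the only gene of this list at least 2-fold changed (1.60 and 1.42). Other cap-binding and decapping genes had medians of 0.06 and 0.11 over 14 of 15 genes, of which 9 were higher and 4 lower with both. *EIF4E2*, a cytoplasmic cap-binding protein, was at 9.35, 19.9 and 11.7 RPKM, 2-fold higher with si-RBCK1 #1 (1.02) but not with si-RBCK1 #2 (0.29).

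The listed genes that host microRNAs, whose primary transcripts are substrates of the Microprocessor, had lower medians with both siRNAs. The list is a selection and does not stand for all microRNA host genes. Their RPKM is a value for the gene, and uncut primary microRNA transcripts were not measured apart. Of the 17 listed, 16 were in the table and 10 passed the filter. Their medians were -0.37 and -0.31, and none reached 2-fold on this scale. With both siRNAs 7 of the 10 were lower (38.2% of all genes) and 2 higher (43.3% of all genes). Over all 16 in the table, without the filter, the medians were nearer to 0, at -0.19 and -0.14. The lowest was *MIR503HG*, at 4.38, 1.73 and 1.96 RPKM from 127, 55 and 56 reads, with log2 ratios of -0.98 and -0.86. On reads, which are not damped by the pseudocount, its ratios were -1.34 (-1.82 to -0.87) and -1.16 (-1.64 to -0.69). Next were *LINC-PINT* (-0.56 and -0.61), at 3.20, 1.85 and 1.74 RPKM, and close to it *MIR100HG* (-0.53 and -0.64), which was picked after its values were seen. *MIR155HG* (-0.91 and -0.22), picked likewise, differed between the siRNAs. On reads its ratios were -1.74 (-2.33 to -1.19) with si-RBCK1 #1 and -0.35 (-0.77 to 0.07) with si-RBCK1 #2. The highest were *MIR31HG* (0.27 and 0.16) and *MIR22HG* (0.19 and 0.08). Whether synthesis or processing of these transcripts differed was not tested.

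Short nuclear RNA, some of which PHAX and the cap-binding complex help to export, was hardly covered by these libraries, and only 2 of 14 genes passed the filter. Both, *RN7SK* and *RPPH1*, are made by polymerase III. *RN7SK*, the RNA that holds the elongation factor P-TEFb inactive, had 14 reads with si-Control, 56 with si-RBCK1 #1 and 193 with si-RBCK1 #2 (1.14, 4.17 and 16.0 RPKM). *RPPH1*, the RNA of ribonuclease P, had 18, 22 and 57 reads in the same order. Both were highest in the si-RBCK1 #2 library, and reads of *RN7SK* can be shared with its many copies in the genome. The other 12 genes of the list were between 0 and 1.33 RPKM in every library.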

How the data were processed

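Each of the 3 conditions in Caki-1 cells gave 1 library, and sample titles gave the groups. The authors deposited 1 table of RPKM values per gene and library (hg19). The submitters' processing notes name Trimmomatic, FastQC, TopHat2 and HTSeq without settings, and the gene annotation is not given in the sources used here. The table also holds the authors' own fold changes and p-values, which were not used. One gene without a numeric si-Control value was left out.

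A pseudocount of 1 RPKM was added before taking log2 ratios, and genes averaging under 1 RPKM were left out. With 1 library per condition no test was made. Library totals were the commonest value that short RNAs (up to 200 nt) gave, and the smallest whole reads (tolerance 0.001) were then searched at lengths up to 50000 nt. All 7 members gave whole reads. True read numbers could be a whole multiple of these, which would leave the ratios as they are but make the intervals too wide. Intervals (95%, exact) cover counting error only.

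The members, lists and settings were chosen with earlier results of these data known. Named genes are the members, list genes changed at least 2-fold in either library or otherwise the 2 highest and 2 lowest by mean ratio, the 5 genes closest to *SRRT*, overlapping genes and neighbours. Exceptions are *XPO5*, *DICER1*, *TARBP2*, *AGO2*, *AGO4*, *MIR100HG* and *MIR155HG*, which were picked after their values were seen. The steps were tested on simulated data. Scripts ran in Python 3.11.15 with scipy 1.17.1, pandas 2.3.3 and numpy 2.4.6, and plots were drawn with matplotlib 3.10.9.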

Additional observations from a re-analysis of the deposited data

How the results depend on the processing

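Other pseudocounts (0.1 and 5 RPKM), libraries scaled to equal medians or equal totals, recovered reads, a filter at 5 RPKM or none, a limit of 1.5-fold, and means in place of medians were tried. No paired analysis was possible because there was 1 library per condition, so no library could be left out either. Of 70 log2 ratios of the 7 genes under alternatives, 63 moved by no more than the counting interval's reach to one side and none changed sign. The other 7 were all with a pseudocount of 5 RPKM, which damps ratios by construction: *SRRT* 1.68 and 1.69, *DROSHA* 0.33 and 0.26, *DGCR8* 0.43 and 0.52 (si-RBCK1 #1 and #2), and *PHAX* 0.51 (si-RBCK1 #2). At 1.5-fold, 2 of the 7 genes were higher with si-RBCK1 #1 and 3 with si-RBCK1 #2. Of 116 list medians, 110 kept their sign and stayed within the 95% interval of the median over the list's genes. Another 4 changed sign and 2 moved to 0. This interval treats the genes of a list as independent, although they come from the same libraries, and served only as a limit for movement. With means, the exosome list changed sign (0.0084 and -0.018), as did the mRNA export list (0.15 and 0.14), and the cause was not tested. With no filter the short nuclear RNA median was 0 with either siRNA, since many of its genes then have a ratio of 0.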
